A study of Mus musculus with 32 samples.

Results

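Dazl, Sycp3, Mael, Stk31, Tdrd1, Slc25a31, Asz1 and Tex101 are mouse genes used mainly by germ cells. They were taken by name: a gene row belonged to the group when its Ensembl identifier, without the version, matched one of these symbols in the GENCODE annotation of mm10. All 8 were found among 55335 gene rows. The libraries came from mouse oocytes, preimplantation embryos and embryonic stem cells, 32 in 16 groups of 2, with total counts of 14313718 to 34713159 per library.

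The groups were the following. Growing oocytes of P14 females carried a transgene for histone H3.3 in both groups, either H3.3K4M, with methionine in place of lysine at a histone H3 tail position, or H3.3WT. The promoter of the transgene and the cells in which it is active were not given in the sources used here. MII oocytes, which are mature and arrested in the second meiotic division, came from 8-week and from 12-month females. The 2-cell and 4-cell embryos were made by in vitro fertilisation with oocytes of 6-8-week females and kept in KSOM medium with the vehicle DMSO, aphidicolin, cycloheximide or MG132. A further 2-cell group from 12-month females was untreated. AB2.2 embryonic stem cells, 1 established line, received DMSO, cycloheximide or MG132. Apart from the P14 oocytes the genotype was WT throughout. Aphidicolin blocks replicative DNA polymerases, cycloheximide blocks translation elongation and MG132 blocks the proteasome; doses and times were not given in the sources used here. Nothing in the labels says whether the 2 libraries of a group came from separate collections, so the p values measure the spread between libraries, which may be technical. Libraries were compared per 1000000 counts (CPM), with no spike-in, so a gene's level is its share of a library. In these bulk samples fewer cells of a type and less RNA per cell cannot be told apart.

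Germline genes of this kind are kept silent in most somatic cells, in large part by DNA methylation of CpG-rich promoters and by the Polycomb complex PRC1.6, whose MGA-MAX and E2F6 subunits recognise E-box and E2F motifs. Germ cells lift this silencing when they erase DNA methylation, and the oocyte then stores many such transcripts for use before the embryo's own genome is switched on. The embryo clears most of the maternal store during the first cleavages. Dazl encodes an RNA-binding protein that promotes translation of germ cell mRNAs. Sycp3 encodes a lateral-element component of the synaptonemal complex, the scaffold between paired meiotic chromosomes. Mael, Tdrd1, Asz1 and Stk31 belong to the piRNA pathway and the germ granules (nuage), where short RNAs against transposons are made. Mael encodes a piRNA factor, Tdrd1 a Tudor-domain scaffold that binds PIWI proteins, Asz1 an ankyrin-repeat protein of the germ granule and mitochondrial surface, and Stk31 a Tudor-domain protein with a kinase domain. Slc25a31 encodes the germ cell form of the mitochondrial ADP/ATP translocase, and Tex101 a GPI-anchored surface protein best known from testicular germ cells.

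The genes lie on different chromosomes except for Stk31 and Asz1, both on chromosome 6. In mm10 (GENCODE M21) Dazl spans chr17:50279395-50293636 on the minus strand, Sycp3 chr10:88459569-88473236 on the plus strand and Mael chr1:166201201-166238747 on the minus strand. Stk31 spans chr6:49395604-49469501 on the plus strand, Tdrd1 chr19:56826209-56870012 on the plus strand and Slc25a31 chr3:40708855-40726096 on the plus strand. Asz1 spans chr6:18050964-18109061 and Tex101 chr7:24668007-24676675, both on the minus strand. Sycp3 has 1264 exon bases, of which 660 are also exon of Chpt1, a phospholipid synthesis gene on the other strand. Whether the counting used strand was not given in the sources used here, so Sycp3 values are uncertain and are set beside Chpt1 below.

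Promoter sequences are shown because CpG content and E-box motifs are the features by which PRC1.6 and DNA methylation are known to reach such genes. They come from RefSeq on GRCm38.p6, the assembly of mm10, as windows from 250 bases before to 50 after each start. All 8 genes matched. The E-box CACGTG, which reads alike on both strands, occurred in the windows of 5 of the 8 genes, Sycp3 (with 2 matches), Mael, Stk31, Tdrd1 and Slc25a31. Among all 32851 windows of this length, 2349 held it, or 7.15%, against 62.5% here. The E-box itself holds a CpG pair, and this comparison was not matched for CpG content or for the number of windows per gene. The stretches around it lie before the annotated start, with the E-box in capitals:
Sycp3, chr10:88459503-88459548, plus strand: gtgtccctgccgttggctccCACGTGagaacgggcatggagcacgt
Mael, chr1:166238942-166238987, minus strand: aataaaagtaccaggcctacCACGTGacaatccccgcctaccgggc
Stk31, chr6:49395464-49395509, plus strand: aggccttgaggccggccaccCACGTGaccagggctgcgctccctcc
Tdrd1, chr19:56826178-56826208, plus strand: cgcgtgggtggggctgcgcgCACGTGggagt
Slc25a31, chr3:40708758-40708803, plus strand: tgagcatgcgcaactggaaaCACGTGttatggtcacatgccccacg

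The E-box of Tdrd1 lay closest to its RefSeq start, 11 bases before it, and that of Mael farthest, 223 bases before it. The E2F-like motif TCCCGC, searched on both strands, occurred in the windows of 3 genes, Sycp3, Mael and Slc25a31, or 37.5%, against 6562 of the 32851 windows. These letters do not overlap those of the E-box. The windows of Dazl, Asz1 and Tex101 held neither motif. CpG pairs were frequent in every window, from 15 in Sycp3 to 28 in Dazl and Stk31, with a median of 21 against 7 over all windows. The 120 bases before the GENCODE start of Dazl and Asz1, which lack both motifs, are shown with their 12 and 11 CpG pairs in capitals:
Dazl, chr17:50293637-50293756, minus strand: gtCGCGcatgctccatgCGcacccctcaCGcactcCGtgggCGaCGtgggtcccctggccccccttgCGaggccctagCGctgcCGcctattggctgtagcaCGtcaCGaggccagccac
Asz1, chr6:18109062-18109181, minus strand: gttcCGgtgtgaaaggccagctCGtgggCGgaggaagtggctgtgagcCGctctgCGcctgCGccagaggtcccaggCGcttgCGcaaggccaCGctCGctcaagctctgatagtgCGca

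The RefSeq start of Tex101 lies inside its GENCODE span, so its window may not be the promoter counted here. A match is a description of letters and not a bound site.

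The 8 genes did not share 1 peak across the 16 groups. Dazl was highest in 2-cell embryos with MG132 at 1312 CPM and lowest in DMSO 4-cell embryos at 12.5 CPM, as group means. Sycp3, Mael and Tex101 peaked in 4-cell embryos with cycloheximide, at 1969, 113 and 245 CPM. Asz1 peaked in 2-cell embryos with cycloheximide at 358 CPM, Stk31 in 2-cell embryos with MG132 at 101 CPM, Slc25a31 in 12-month MII oocytes at 114 CPM and Tdrd1 in P14 oocytes with H3.3WT at 163 CPM. For 6 genes, Sycp3, Mael, Stk31, Tdrd1, Slc25a31 and Asz1, the lowest mean was that of DMSO stem cells, between 0.456 CPM for Tdrd1 and 8.79 CPM for Stk31. For Mael and Stk31 this low overlapped the group above it and is not resolved. The peaks of Sycp3, Asz1 and Tex101 had no overlap with the next group in the order. Those of Dazl, Mael, Stk31, Tdrd1 and Slc25a31 overlapped it and are not resolved, as for Mael at 115 and 112 CPM against 104 and 119 CPM in 2-cell embryos with aphidicolin. Highest and lowest means differed 1229-fold for Sycp3, 682-fold for Asz1, 356-fold for Tdrd1, 125-fold for Slc25a31, 105-fold for Dazl, 31.0-fold for Mael and 11.5-fold for Stk31. All of these ratios but that of Dazl set oocytes or embryos against stem cells, whose library kit differed, so their size is uncertain.

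The order of groups was finely resolved for some genes only. Levels in stem cells and embryos rest on different library kits. Of the 15 neighbouring pairs in the order of means, the 2 libraries of one group overlapped those of the next in 14 for Stk31, 11 for Mael and 10 for Tex101. Overlapping neighbours numbered 8 for Tdrd1, Slc25a31 and Asz1, 7 for Dazl and 6 for Sycp3. Per kilobase of exon (RPKM), which allows levels of different genes to be compared, Dazl was the highest of the 8 in P14 oocytes, 8-week MII oocytes, all 2-cell groups and all stem cell groups. Sycp3 was the highest in 12-month MII oocytes and in all 4-cell groups.

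**Figure D1:**
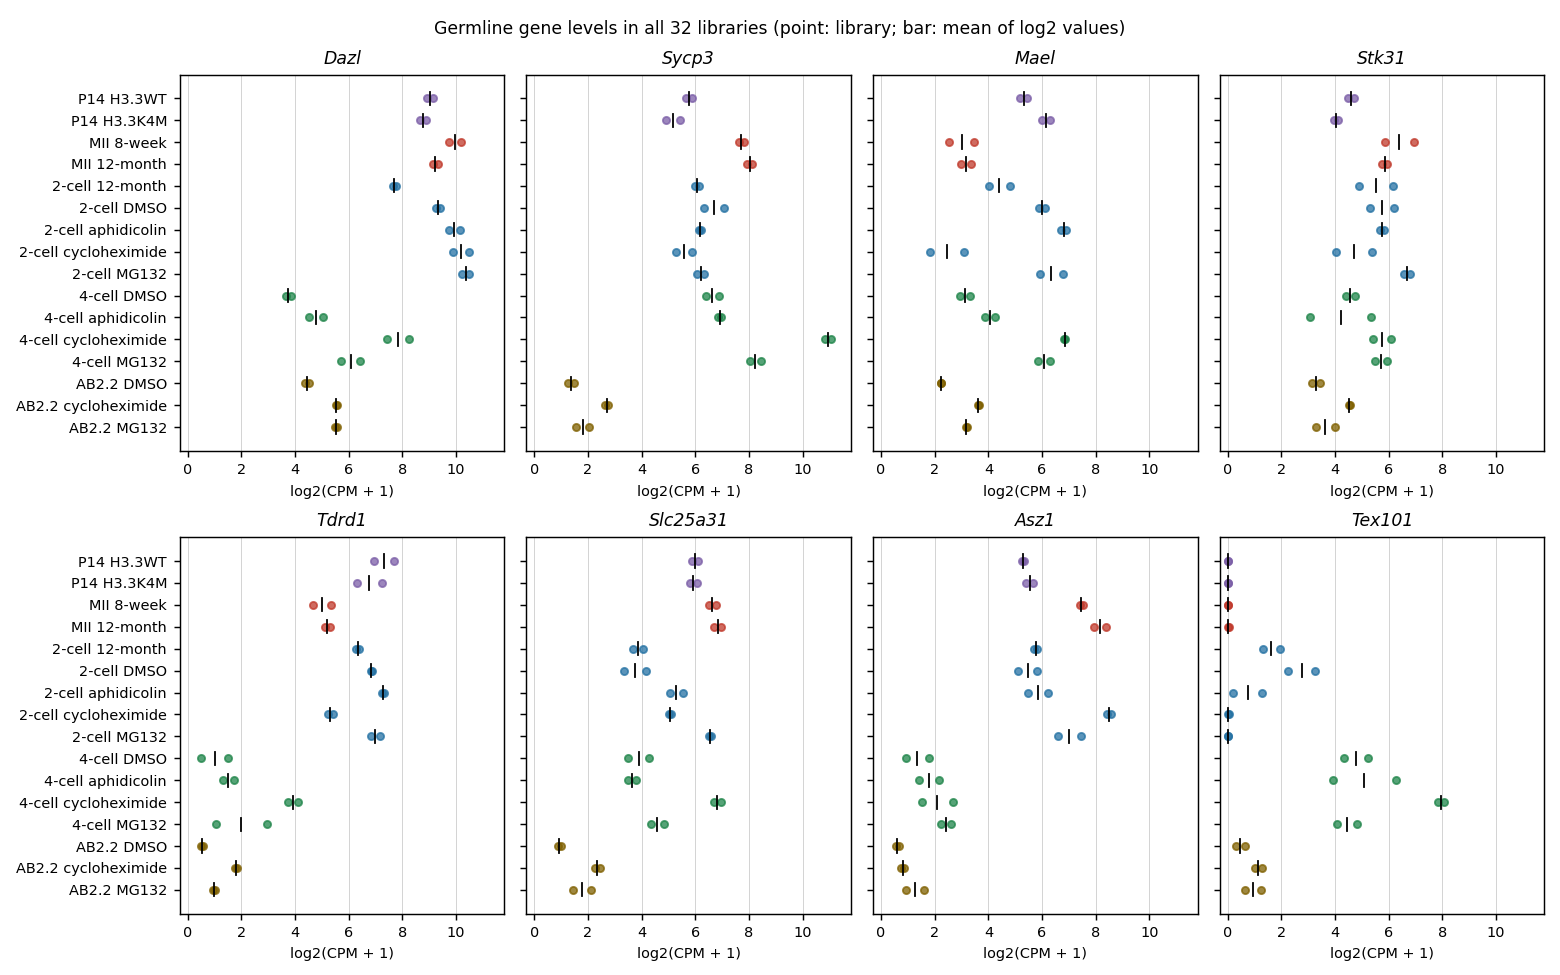
Levels of the 8 genes as log2(CPM + 1) on the x axis in each of the 16 groups on the y axis; points are libraries, black bars the mean of the log2 values and colours the stage. Sycp3, Mael and Tex101 had their highest mean in 4-cell embryos with cycloheximide, for Mael overlapping the next group, and Tex101 was at or near 0 in P14 and MII oocytes.

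From growing oocyte to 4-cell embryo the 8 genes followed different courses. Dazl, the RNA-binding regulator, stood at 558 and 481 CPM in P14 oocytes with H3.3WT, 1169.6 and 840.2 CPM in 8-week MII oocytes, 668 and 606 CPM in DMSO 2-cell embryos, and 13.2 and 11.7 CPM in DMSO 4-cell embryos. No stage overlapped the next, and the drop at the last step was the largest. Without overlap, 38.5% of all genes tested were higher from P14 to MII, and 13.7% lower from MII to 2 cells. From 2 to 4 cells 46.8% were lower. Sycp3 measured 57.5 and 49.2 CPM in P14, 198 and 221 CPM in MII, 78.9 and 133 CPM in 2-cell and 82.5 and 116 CPM in 4-cell libraries. It was thus highest in MII oocytes, and its 2-cell and 4-cell libraries overlapped.

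The piRNA genes differed among themselves. Mael, the piRNA factor, was at 42.3 and 35.2 CPM in P14 oocytes with H3.3WT, 4.86 and 10.1 CPM in MII oocytes, 58.8 and 67.5 CPM in 2-cell embryos and 6.65 and 9.01 CPM in 4-cell embryos. Tdrd1, the Tudor scaffold, followed the same order of highs and lows in the first steps, with 203 and 123 CPM, then 39.5 and 24.6 CPM, then 115 and 113 CPM, and ended at 0.425 and 1.86 CPM in 4-cell embryos. Both were low in MII libraries and high in 2-cell libraries without overlap, and 49% of all genes tested were too. Of both, only Mael was called in the main test of this step below. Asz1, the ankyrin-repeat protein, went the other way before cleavage, from 37.4 and 39.5 CPM in P14 to 169 and 183 CPM in MII, then to 33.4 and 55.6 CPM at 2 cells and 0.911 and 2.41 CPM at 4 cells. Stk31, the Tudor-domain kinase-like gene, was at 25.3 and 21.4 CPM, 121 and 56.9 CPM, 38.9 and 71.5 CPM, and 25.7 and 20.2 CPM over the same stages, with MII and 2-cell libraries overlapping. Slc25a31, the ADP/ATP translocase, had 56.9 and 67.7 CPM in P14, 108 and 88.9 CPM in MII, 9.24 and 17.1 CPM in 2-cell and 18.4 and 10.2 CPM in 4-cell libraries, and its level at 2 and 4 cells overlapped.

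Tex101, the surface protein gene, was first detected in embryos or, with 1 count, in 12-month MII oocytes. It had no count in the 4 P14 libraries or the 2 MII libraries of 8-week females, which limits its level there to at most 0.0883 to 0.110 CPM for 3 counts, counting error only. It then reached 3.78 and 8.56 CPM in DMSO 2-cell embryos and 19.4 and 36.6 CPM in DMSO 4-cell embryos. Levels in DMSO embryos of both stages lay above all oocyte levels.

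**Figure D2:**
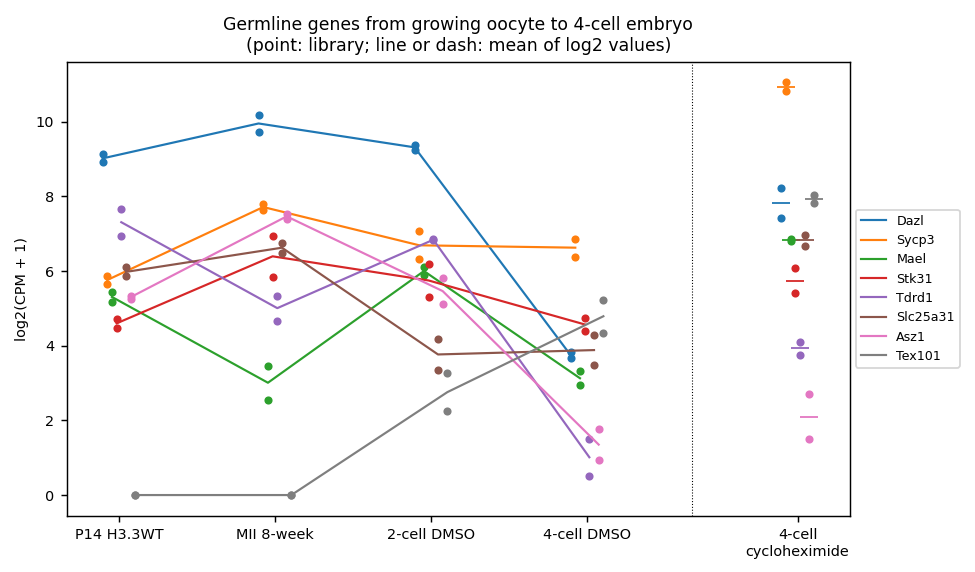
Levels as log2(CPM + 1) on the y axis for each of the 8 genes at 4 stages and, right of the dotted line, in 4-cell embryos with cycloheximide; points are libraries and lines or dashes the mean of log2 values. Dazl, Tdrd1 and Asz1 fell steeply to the DMSO 4-cell stage while Tex101 first appeared at 2 cells.

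The steps were tested with edgeR's quasi-likelihood test, Benjamini-Hochberg adjusted over all genes. Between P14 oocytes with H3.3WT and 8-week MII oocytes, 4 of 7 genes tested were higher in MII against a background of 27.4% of all genes, and 2 were lower against 34.4%. Asz1 rose by 1.99 (log2 fold change, SE 0.27, adjusted p = 0.00031), Sycp3 by 1.78 (SE 0.23, adjusted p = 0.000232), Stk31 by 1.70 (SE 0.31, adjusted p = 0.0016) and Dazl by 0.74 (SE 0.23, adjusted p = 0.0213). Mael fell by 2.55 (SE 0.41, adjusted p = 0.000802) and Tdrd1 by 2.55 (SE 0.34, adjusted p = 0.000311). Slc25a31 was called when scaled by library totals, at 0.66. The transgene and the stage cannot be told apart here. The Dazl call was lost without either P14 library (adjusted p = 0.112 and 0.136) or without replicate 1 of the MII oocytes (adjusted p = 0.0618).

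Between 8-week MII oocytes and DMSO 2-cell embryos, 2 of 8 genes were called higher and 4 lower, each against a background of 10.1%. Slc25a31 fell by 3.70 (SE 0.42, adjusted p = 0.000345), Asz1 by 2.79 (SE 0.43, adjusted p = 0.00188), Sycp3 by 1.80 (SE 0.32, adjusted p = 0.00366) and Dazl by 1.46 (SE 0.23, adjusted p = 0.0022). Mael rose by 2.24 (SE 0.47, adjusted p = 0.00864), and Tex101, from 0 counts to 342, was at least 113.8-fold higher (3 counts over the group, adjusted p = 0.00104). These changes are relative to TMM scaling, which assumes that most features do not change; scaled by library totals alone the median of all genes moved by 0.79 and calls that were higher made up 81.4% instead of 49.9%. On that scale Dazl fell by 0.66 and lost its call, and Tdrd1 rose by 1.83 and gained one. Stk31 at -1.46 (adjusted p = 0.0511) was called with DESeq2 size factors (adjusted p = 0.0485), under DESeq2 (adjusted p = 0.0144) and without a filter on low counts (adjusted p = 0.00195). Without replicate 2 of the MII oocytes Stk31 was at -1.85, in a fit that leaves 1 library in that group. Over genes only, without repeats, 62.3% of calls were higher.

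From DMSO 2-cell to DMSO 4-cell embryos 4 of 8 genes fell, against a background of 29.4% lower, and 1 rose, against 19.6% higher. Log2 fold changes were -6.25 for Tdrd1 (SE 0.60, adjusted p = 2.25e-05), -5.26 for Dazl (SE 0.28, adjusted p = 1.23e-06), -4.36 for Asz1 (SE 0.48, adjusted p = 4.84e-05) and -2.61 for Mael (SE 0.48, adjusted p = 0.00127). Tex101 rose by 2.57 (SE 0.66, adjusted p = 0.0104); this call was lost without replicate 1 of the 2-cell or replicate 2 of the 4-cell DMSO embryos. Sycp3, Slc25a31 and Stk31 had log2 fold changes of 0.31, 0.53 and -0.86 with adjusted p values of 0.426, 0.268 and 0.143.

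In stem cells, where such genes are largely repressed, cycloheximide raised most of them. Dazl, the highest of the 8 there, was at 21.9 and 19.6 CPM with DMSO and 44.6 and 46.5 CPM with cycloheximide. Mael went from 3.65 and 3.66 CPM to 11.6 and 11.1 CPM, and Sycp3 from 1.80 and 1.40 CPM to 5.21 and 5.75 CPM. In all 3 the libraries with the drug lay above those with DMSO. Stk31 stood at 9.85 and 7.72 CPM with DMSO and 22.4 and 21.8 CPM with cycloheximide. Tdrd1 and Slc25a31 started lower, at 0.416 and 0.497 CPM and at 0.833 and 0.993 CPM, and reached 2.61 and 2.40 CPM and 3.81 and 4.39 CPM. Asz1 (0.463 and 0.587 CPM to 0.820 and 0.679 CPM) and Tex101 (0.555 and 0.226 CPM to 1.01 and 1.40 CPM) also had no overlap between groups.

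By edgeR, 6 of the 8 genes were higher with cycloheximide against a background of 13.6% of 18696 genes, and none was lower against 13.4%. The cycloheximide libraries of all 8 lay above those with DMSO, as they did in 42.2% of all genes tested. Log2 fold changes were 2.35 for Tdrd1 (SE 0.27, adjusted p = 0.0013), 2.08 for Slc25a31 (SE 0.34, adjusted p = 0.00466), 1.69 for Sycp3 (SE 0.26, adjusted p = 0.00379), 1.55 for Mael (SE 0.14, adjusted p = 0.000636), 1.24 for Stk31 (SE 0.24, adjusted p = 0.00891) and 1.05 for Dazl (SE 0.11, adjusted p = 0.00116). Tex101 at 1.54 (adjusted p = 0.0747) and Asz1 at 0.42 (adjusted p = 0.56) did not pass; without a filter on low counts Tex101 did (adjusted p = 0.0412). The median over the 8 was 1.54, against -0.04 over all genes tested. Leaving out any 1 of the 4 libraries ended the call of Stk31 (adjusted p of 0.053 to 0.0969); without replicate 2 of DMSO that of Sycp3 was lost, and that of Slc25a31 was lost without either DMSO library or without replicate 2 of cycloheximide. Scaled by library totals, 62.8% of all calls were higher instead of 50.5%.

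With MG132 the germ cell RNA-binding gene Dazl and the piRNA gene Mael rose in stem cells. Dazl was at 46.5 and 44.2 CPM and rose by 1.06 (SE 0.11, adjusted p = 0.00843), and Mael at 7.89 and 8.16 CPM rose by 1.07 (SE 0.14, adjusted p = 0.0167). These were the 2 of 8 genes called higher, against a background of 1.90%, with none lower against 1.34%. The other 6 had positive log2 fold changes, from 0.36 for Stk31 to 1.40 for Slc25a31 (adjusted p = 0.0733), and in 7 of the 8 the MG132 libraries lay above those with DMSO, as in 31.2% of all genes tested. Without either DMSO library neither Dazl nor Mael passed, and without replicate 1 of MG132 the value for Stk31 was -0.01. Slc25a31 was called under DESeq2, and both it and Asz1 without a filter on low counts. Without replicate 1 of MG132 Slc25a31 and Tex101 were at 0.90 and 1.78. Without replicate 2 Slc25a31, Sycp3, Stk31 and Asz1 were at 1.81, 0.90, 0.69 and 1.86. These fits leave 1 MG132 library, so no call is drawn from them. By library totals 71.9% of all calls were higher instead of 58.6%. Cycloheximide and MG132 share the DMSO libraries, and no difference between the drugs was tested.

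**Figure D3:**
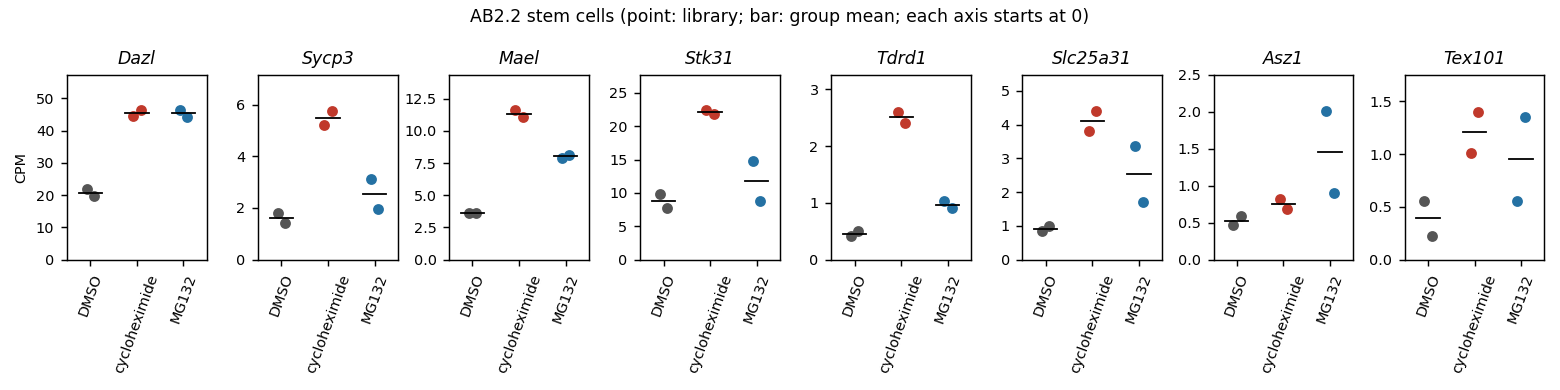
CPM of each of the 8 genes in AB2.2 stem cells with DMSO, cycloheximide or MG132; points are libraries, bars are group means and each y axis starts at 0. All cycloheximide points lie above the DMSO points, in Dazl at 44.6 and 46.5 against 21.9 and 19.6 CPM.

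Genes of the same pathways were counted in the same stem cells, from lists chosen by function and without the 8 genes. With cycloheximide 19 of 38 tested genes of the synaptonemal complex and meiotic prophase rose and 2 fell, with a median log2 fold change of 0.69. Among them were the meiotic cohesin Smc1b at 1.63 (15.9 and 15.3 CPM against 4.16 and 5.33 CPM, adjusted p = 0.000648) and the synaptonemal complex gene Syce1 at 1.56 (adjusted p = 0.0014). Of the piRNA and nuage genes 7 of 22 rose and 2 fell, with a median of 0.26. The PIWI gene Piwil2 rose by 1.58, from 9.34 and 11.1 CPM to 31.8 and 33.3 CPM (adjusted p = 0.000447), and the helicase genes Tdrd9 and Ddx4 by 2.23 and 1.29. Of other germline genes known to be silenced in somatic cells 17 of 32 rose and none fell, with Taf7l at 2.79 and Zcwpw1 at 1.67. The 3 lists share 15 genes. As 1 set of 77 tested genes, 33 rose (42.9%) and 4 fell (5.19%), against backgrounds of 13.6% and 13.4%. The median was 0.46 against -0.04 over all genes. With MG132 the set had 8 higher (10.4%) and 1 lower (1.30%), Tdrd7 at -0.84, against backgrounds of 1.90% and 1.34%. Its median was 0.23, and Smc1b, the meiotic regulator Meioc and Ddx4 rose by 1.30, 1.23 and 0.88.

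Genes of the repressors were counted too. Over all genes tested 13.6% rose and 13.4% fell with cycloheximide, and 1.90% and 1.34% with MG132. Of 17 tested subunits of PRC1.6 none rose and 2 fell with cycloheximide, L3mbtl2 by 0.55 (adjusted p = 0.00882) and Tfdp1 by 0.43 (adjusted p = 0.0161). The count of 2 of 17 is near the 13.4% over all genes. None was called with MG132. Of 14 tested genes of DNA and H3K9 methylation, 6 fell and 1 rose with cycloheximide. The H3K9 methyltransferase gene Setdb1 fell by 0.54, the maintenance methylation cofactor Uhrf1 by 0.49 and the DNA methyltransferase Dnmt3b by 0.48, while the cofactor Dnmt3l rose by 1.70 (SE 0.17, adjusted p = 0.000825). With MG132 Uhrf1 fell by 0.59, the only gene of that list called.

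Other cell markers moved in the same libraries. The summed level of 7 fibroblast feeder markers, such as collagen genes, was 1109.8 to 1343.6 CPM with DMSO, 603 to 612 CPM with cycloheximide and 629.6 to 652 CPM with MG132; 4 of 6 tested were lower with each drug. The 7 markers of the 2-cell embryo summed to 5.64 to 7.17 CPM with DMSO, where Tcstv1 was at 0, to 50.5 to 51.6 CPM with cycloheximide and to 17.5 to 19.1 CPM with MG132. All 6 of these that were tested rose with cycloheximide and 3 with MG132. The 8 oocyte markers stayed between 7.37 and 10.4 CPM, with Oosp1 at 0. The part of feeder cells or of cells with 2-cell gene expression in the change of the 8 genes was not tested.

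In 4-cell embryos with cycloheximide 5 of the 8 genes rose, among them the meiotic gene Sycp3, Dazl and Mael. Dazl was at 298 and 172 CPM against 13.2 and 11.7 CPM with DMSO. Sycp3 was at 2126 and 1811 CPM against 82.5 and 116 CPM, and Mael at 115 and 112 CPM against 6.65 and 9.01 CPM. In all 3 the drug libraries were far above the DMSO libraries, without overlap. Slc25a31 stood at 124 and 101 CPM against 18.4 and 10.2 CPM, and Tex101 at 226 and 263 CPM against 19.4 and 36.6 CPM. Tdrd1 was at 16.2 and 12.5 CPM against 0.425 and 1.86 CPM, and Stk31 at 66.5 and 41.7 CPM against 25.7 and 20.2 CPM. These genes too had no overlap, while the Asz1 libraries, at 5.49 and 1.84 CPM against 0.911 and 2.41 CPM, overlapped.

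Of the 8 genes 5 were called higher by edgeR, against a background of 8.77% of 22520 genes, and none lower, against 10.3%. In 7 of the 8 the cycloheximide libraries lay above those with DMSO, as in 49.3% of all genes tested. The log2 fold changes were 3.86 for Sycp3 (SE 0.30, adjusted p = 0.000293), 3.76 for Dazl (SE 0.35, adjusted p = 0.000458), 3.41 for Mael (SE 0.31, adjusted p = 0.000407), 2.69 for Tex101 (SE 0.64, adjusted p = 0.0213) and 2.51 for Slc25a31 (SE 0.39, adjusted p = 0.00339). Tdrd1 at 3.20 (SE 1.0, adjusted p = 0.0546) missed the threshold, and passed it under DESeq2, without a filter on low counts and when scaled by library totals. Stk31 and Asz1 were at 0.77 and 0.66. The median over the 8 was 2.95, against 0.44 over all genes. The Tex101 call was lost without replicate 2 of cycloheximide (adjusted p = 0.0527) or replicate 1 of DMSO (adjusted p = 0.0872). Scaled by library totals the median of all genes moved by 0.45, and 64.2% of calls were higher instead of 46.0%.

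MG132 raised 3 of the 8 genes at 4 cells, against a background of 3.06% higher, and lowered none, against 4.33%. Mael was at 76.6 and 56.7 CPM and rose by 2.93 (SE 0.30, adjusted p = 0.00286). Dazl was at 84.8 and 51.8 CPM and rose by 2.28 (SE 0.33, adjusted p = 0.00784), and Sycp3, at 262 and 343 CPM, rose by 1.46 (SE 0.27, adjusted p = 0.017). All 3 lay between the DMSO and the cycloheximide libraries. The remaining genes ranged from -0.55 for Tex101 to 1.57 for Tdrd1, and in 6 of the 8 the MG132 libraries lay above those with DMSO, as in 29.7% of all genes tested. The Sycp3 call was lost without replicate 2 of MG132 or replicate 1 of DMSO, and by library totals 51.7% of all calls were higher instead of 41.4%. With aphidicolin none of the 8 was called, nor any of the other genes (background 0% higher and 0% lower), by edgeR; 2 of the 8, Dazl at 0.95 and Mael at 0.87, and 1845 genes in all had an unadjusted p under 0.05, and DESeq2 called none of the 8 and 270 genes.

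Other germline genes in 4-cell embryos moved both ways. With cycloheximide the set of 3 germline lists had 18 higher and 6 lower of 84 tested, or 21.4% and 7.14%, against backgrounds of 8.77% and 10.3%. The medians of the piRNA, meiotic and other lists were 0.63, 1.29 and 1.19 against 0.44 over all genes. Stra8, the gatekeeper of meiotic entry, rose by 6.15, from 1.28 and 1.31 CPM to 107 and 142 CPM (adjusted p = 0.0018). The meiotic regulator gene Meioc rose by 4.18. The transcription factor gene Mybl1, a regulator of piRNA precursors, rose by 4.09, while the piRNA factor gene Exd1 fell by 2.44. Of PRC1.6, the heterochromatin protein gene Cbx3 fell by 2.63, from 643 and 705 CPM to 169 and 130 CPM (adjusted p = 0.00447), and the deacetylase Hdac2 by 2.39, while Yaf2 and Dcaf7 rose by 1.81 and 1.52. These are single genes named for the size of their change, and no result is drawn for PRC1.6 as a set. With MG132 the set had 6 higher and 1 lower, or 7.14% and 1.19%, against backgrounds of 3.06% and 4.33%. Pcgf6, the PRC1.6-specific ring finger gene, rose by 1.14, again as a single gene. The 2-cell markers summed to 48.9 to 102 CPM with DMSO, 348 to 683 CPM with cycloheximide and 212 to 213 CPM with MG132, and 4 of 7 rose with cycloheximide. Their sum thus moved with the germline genes; whether cycloheximide embryos were at the same stage as their controls was not tested. The 8 oocyte markers summed to 105 to 122 CPM with DMSO, 184 to 187 CPM with cycloheximide and 179.7 to 304 CPM with MG132, with 2 and 1 of 8 called higher. The 8 pluripotency markers summed to 4308 to 5178 CPM with DMSO, 1415 to 1484 CPM with cycloheximide and 2781 to 3613 CPM with MG132, with 1 of 8 called lower by each drug. The 14 cumulus and granulosa markers summed to 331 to 343 CPM with DMSO. With cycloheximide their sum was 11.9 to 13.5 CPM and with MG132 54.4 to 84.1 CPM. In DMSO embryos only 2 of the 14 reached 1 CPM and 8 were at 0, so that sum rests on few genes. Of 8 tested 1 was called lower by each drug, and the defining genes Amh and Fshr were at 0 in all 3 groups. The part of these differences in the values of the germline genes was not tested.

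In 2-cell embryos cycloheximide split the genes. Asz1 was at 375 and 339.9 CPM against 33.4 and 55.6 CPM with DMSO. Dazl was at 938 and 1415 CPM against 668 and 606 CPM, and Slc25a31 at 31.7 and 32.8 CPM against 9.24 and 17.1 CPM. These 3 were higher without overlap. Mael was at 2.51 and 7.42 CPM against 58.8 and 67.5 CPM, which is about its MII level of 4.86 and 10.1 CPM. Tdrd1 was at 41.3 and 36.1 CPM against 115 and 113 CPM, also near its MII level of 39.5 and 24.6 CPM. Tex101 had 1 count in the 2 libraries together, against 342 with DMSO. These 3 genes were thus lower than in DMSO embryos and near or at their levels in MII oocytes. Sycp3, at 57.1 and 37.9 CPM against 78.9 and 133 CPM with DMSO, lay below its MII level of 198 and 221 CPM. Asz1 lay above its MII level of 169 and 183 CPM and Slc25a31 below its 108 and 88.9 CPM. Dazl overlapped its MII libraries, at 1169.6 and 840.2 CPM. How long embryos were treated was not given in the sources used here.

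By edgeR 3 of the 8 genes were higher at 2 cells with cycloheximide, against a background of 11.0%, and 3 lower, against 13.0%. The cycloheximide libraries lay above those with DMSO in 3 of the 8 and below in 4, against 19% and 40.3% of all genes tested. Asz1 rose by 3.40 (SE 0.42, adjusted p = 0.000285), Slc25a31 by 1.69 (SE 0.37, adjusted p = 0.00668) and Dazl by 1.29 (SE 0.30, adjusted p = 0.00944). Mael fell by 3.26 (SE 0.52, adjusted p = 0.00115), Tdrd1 by 1.15 (SE 0.27, adjusted p = 0.0104), and Tex101 was lower by a ratio of 354 of the CPM (95% counting interval 63.1 to 14013, adjusted p = 0.00447). Sycp3 at -0.76 (adjusted p = 0.117) was called at -1.15 when scaled by library totals, under which the median of all genes moved by -0.40 and 30.3% of calls were higher instead of 46.0%. The Dazl call was lost without replicate 2 of either group, that of Tdrd1 without replicate 2 of cycloheximide and that of Slc25a31 without replicate 1 of DMSO.

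MG132 at 2 cells raised 2 of the 8 genes, against a background of 5.10%, and lowered 1, against 4.68%. Slc25a31 was at 90.7 and 94.9 CPM, close to its 108 and 88.9 CPM in MII oocytes, and rose by 2.68 (SE 0.38, adjusted p = 0.00165). Asz1, at 173 and 96.1 CPM, rose by 1.45 (SE 0.39, adjusted p = 0.0358), a call lost with DESeq2 size factors and without replicate 1 of MG132 or of DMSO. Tex101 had 0 counts in both libraries and was called lower (adjusted p = 0.00668), a call lost without replicate 2 of MG132. With the 0 set to 3 counts over the group, the Tex101 ratio was 88.8, and the lower end of its 95% counting interval was 71.9. Dazl, at 1437 and 1186 CPM, had a log2 fold change of 0.91 (adjusted p = 0.0793) and passed at 1.04 by library totals. Mael stayed at 59.2 and 109 CPM, with a log2 fold change of 0.28 (SE 0.47).

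Aphidicolin at 2 cells changed none of the 8 genes by edgeR, with backgrounds of 0.00893% higher and 0.192% lower; 2 of the 8 and 2292 genes in all had an unadjusted p under 0.05, and DESeq2 called 1 of the 8 and 596 genes. That gene was Slc25a31, at 45.3 and 31.9 CPM (edgeR 1.50, SE 0.37, adjusted p = 0.157; DESeq2 1.45). Tex101 was at 0.140 and 1.45 CPM, below both DMSO libraries (edgeR -2.97, SE 1.10, adjusted p = 0.383).

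**Figure D4:**
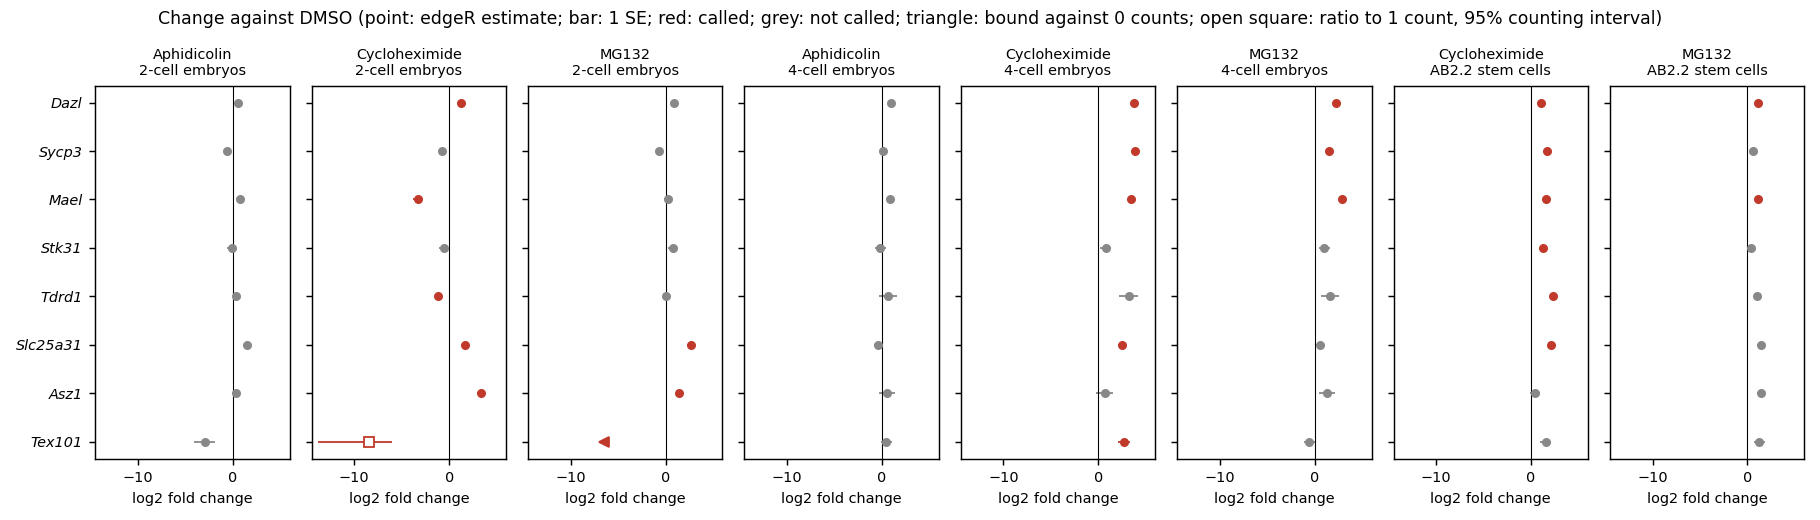
Log2 fold change against DMSO (x axis) of the 8 genes (y axis) for each drug and stage; points are edgeR estimates with bars of 1 SE, red if called, the triangle is the bound against 0 counts and the open square the ratio to 1 count with its 95% counting interval. All 8 estimates are positive with cycloheximide in 4-cell embryos and in stem cells, while at 2 cells Mael, Tdrd1 and Tex101 are called lower.

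Among related genes at 2 cells, cycloheximide raised 12 and lowered 11 of 81 tested genes of the 3 germline lists, or 14.8% and 13.6%, near the backgrounds of 11.0% and 13.0%, with a median of -0.06 against -0.26 over all genes. Of the piRNA and nuage genes 6 of 23 rose and none fell. Rnf17 rose by 3.58, from 18.8 and 23.1 CPM to 254 and 127 CPM (adjusted p = 0.00042), Tdrd12 by 2.99 and Tdrd5 by 2.91, all Tudor-domain partners of the pathway. Of the meiotic genes 7 of 43 fell and 4 rose, with Meioc at -4.16, Tex12 at -2.33 and Tex11 at -2.24. With MG132 3 of the 81 rose, or 3.70%, and 4 fell, or 4.94%, against backgrounds of 5.10% and 4.68%. The 3 that rose were the Tudor genes Rnf17 by 2.86, Tdrd5 by 2.82 and Tdrd12 by 2.35; among the 4 that fell were the ribosomal protein paralogue Rpl10l by 3.89, Mei4 by 2.22 and Meioc by 2.12. The maintenance DNA methyltransferase gene Dnmt1 rose by 4.48 with cycloheximide and by 3.41 with MG132, and Cbx3 fell by 2.95 and 2.44. Both are single genes of the repressor lists named for the size of their change, and no result is drawn for those lists.

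Markers of stage moved with these changes. The 2-cell markers summed to 1055.9 to 1361 CPM with DMSO, 62.0 to 97.1 CPM with cycloheximide, 240.3 to 271 CPM with MG132 and 254 to 391 CPM with aphidicolin. All 7 fell with cycloheximide, 6 of 7 with MG132 and 2 of 7 with aphidicolin, and Tdpoz4 was at 0 with cycloheximide and with MG132. The 8 oocyte markers summed to 4350.2 to 4642 CPM with DMSO and to 6520.0 to 10578 CPM with cycloheximide, where 5 of 8 rose, and to 5984 to 7722 CPM with MG132, where 4 of 8 rose. The part of developmental delay in the values of the 8 genes was not tested.

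The difference between the drug effects at 4 and at 2 cells was tested itself, with separate DMSO groups. For cycloheximide 6 of the 8 genes differed, against a background of 19.8% called either way. The effect at 4 cells exceeded that at 2 cells by 6.72 for Mael (SE 0.71, adjusted p = 3.27e-05), 4.68 for Sycp3 (SE 0.51, adjusted p = 3.57e-05), 4.42 for Tdrd1 (SE 0.94, adjusted p = 0.00463) and 2.52 for Dazl (SE 0.46, adjusted p = 0.00169), and for Tex101 with an adjusted p of 0.000432. Slc25a31 was called by library totals, at 1.68. Asz1 went the other way, by -2.67 (SE 0.79, adjusted p = 0.0282). The Asz1 call was lost by library totals (-1.86), under which the median of all genes moved by 0.78 and 83.9% of calls were higher instead of 67.5%, and without replicate 1 of the 2-cell DMSO, replicate 2 of the 4-cell cycloheximide or replicate 2 of the 4-cell DMSO group.

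For MG132 4 of the 8 differed between stages, against a background of 10.3%. The difference was 2.59 for Mael (SE 0.65, adjusted p = 0.02), 2.11 for Sycp3 (SE 0.49, adjusted p = 0.0126) and -2.18 for Slc25a31 (SE 0.59, adjusted p = 0.0293), and Tex101 had an adjusted p of 0.00625. Calls of Mael, Sycp3 and Slc25a31 were each lost without at least 1 library: Mael and Sycp3 without replicate 1 of the 2-cell MG132 group, Mael also without replicate 1 of the 4-cell DMSO group, Sycp3 without replicate 2 of the 2-cell DMSO group, and Slc25a31 without any 1 of the MG132 libraries or replicate 1 of either DMSO group. The Slc25a31 call was also lost with library sizes from genes alone, at -1.94 (adjusted p = 0.0558). Dazl was called under DESeq2 (adjusted p = 0.0192) and without a filter on low counts (adjusted p = 0.0396). Without replicate 2 of the 4-cell MG132 group Dazl and Tdrd1 were at 1.78 and 2.48, in a fit that leaves 1 library in that group. For aphidicolin edgeR called no gene (background 0%), with an unadjusted p under 0.05 for 2 of the 8 and 2719 genes in all; DESeq2 called 1 of the 8, Slc25a31 at -1.98, and 643 genes, and without a filter Tex101 was called, at 3.48.

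Sycp3 and the antisense gene Chpt1 both rose in 4-cell embryos with cycloheximide, while their calls were alike in some other comparisons and differed in others. In 4-cell embryos with cycloheximide Chpt1 was at 1033 and 776 CPM, against 63.7 and 97.7 CPM with DMSO, a log2 fold change of 3.03 (SE 0.30, adjusted p = 0.000605) beside 3.86 for Sycp3. In 2-cell embryos with cycloheximide Chpt1 was at 9.01 and 4.34 CPM against 33.9 and 61.6 CPM and fell by 2.45 (adjusted p = 0.00256), beside -0.76 (adjusted p = 0.117) for Sycp3. With MG132 at 4 cells Chpt1 had a log2 fold change of 0.72 (adjusted p = 0.165) beside 1.46 (adjusted p = 0.017) for Sycp3. From DMSO 2-cell to 4-cell embryos Chpt1 rose by 1.15 (adjusted p = 0.0241), beside 0.31 (adjusted p = 0.426) for Sycp3. In stem cells Chpt1 was the higher of both, at 16.1 and 12.4 CPM with DMSO and 12.6 and 15.2 CPM with cycloheximide, with a log2 fold change of -0.13 (adjusted p = 0.646) beside 1.69 for Sycp3. In further comparisons both were called in the same direction. Chpt1 rose by 1.76 from P14 oocytes with H3.3WT to 8-week MII oocytes (adjusted p = 0.000308). From MII to 2 cells it fell by 1.85 (8-week) and 2.11 (12-month), with adjusted p values of 0.00696 and 0.00522. The cycloheximide difference between stages was 5.54 for Chpt1 (adjusted p = 3.5e-05) beside 4.68 for Sycp3. With H3.3K4M Chpt1 was at -0.47 and not called (adjusted p = 0.0802). Reads of the 660 shared exon bases may have been counted for either gene, and how many were was not tested.

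**Figure D5:**
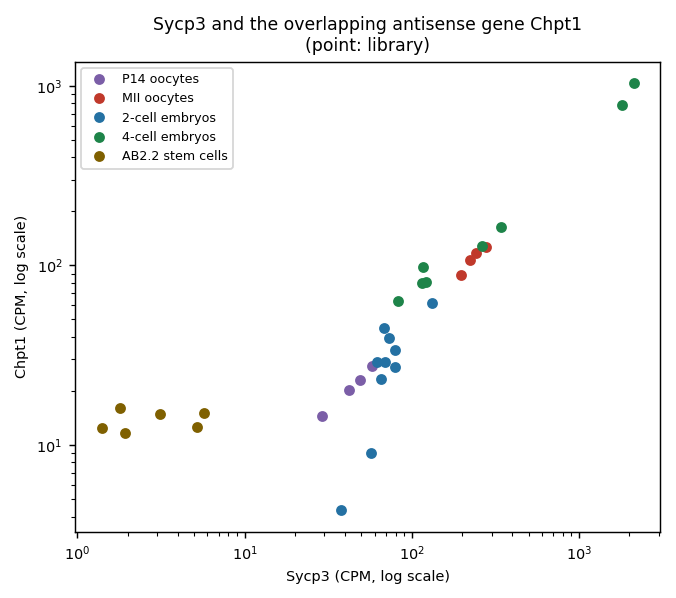
CPM of Sycp3 (x axis) and of Chpt1, the gene on the other strand that shares exon bases with it (y axis), both on log scales; points are libraries, coloured by stage. Libraries of 4-cell embryos with cycloheximide stand apart at 2126 and 1811 CPM of Sycp3, and stem cell libraries hold more Chpt1 than Sycp3.

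In P14 oocytes the H3.3K4M transgene was set against H3.3WT. Mael was at 77.6 and 62.5 CPM with H3.3K4M and 42.3 and 35.2 CPM with H3.3WT, without overlap, and was higher by 0.95 (SE 0.19, adjusted p = 0.00374). Sycp3, at 29.1 and 42.4 CPM against 57.5 and 49.2 CPM, was lower by a log2 fold change of -0.51 (SE 0.17, adjusted p = 0.048), and Stk31, at 14.4 and 16.3 CPM against 25.3 and 21.4 CPM, by -0.53 (SE 0.17, adjusted p = 0.0449). Thus 1 of 7 genes tested was higher, against a background of 8.64%, and 2 lower, against 13.7%. Sycp3 and Stk31 lost their calls under DESeq2, with its size factors, by library totals and with a block for the replicate number; without single libraries Stk31 lost it in all 4 cases and Sycp3 in 3, kept only without replicate 2 of H3.3K4M. Dazl, at 473 and 406 CPM against 558 and 481 CPM, had a log2 fold change of -0.15 (SE 0.19), and Slc25a31 one of 0.03 (SE 0.20). Tdrd1 at -0.46 (77.7 and 149 CPM against 203 and 123 CPM) and Asz1 at 0.33 were not called either. Without replicate 2 of H3.3K4M they were at -0.86 and 0.56, and without replicate 2 of H3.3WT Tdrd1 was at -0.70. These fits leave 1 library in a group, so no call is drawn from them.

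Of the 3 germline lists in P14 oocytes 6 genes were higher and 10 lower of 71 tested, or 8.45% and 14.1%, near the backgrounds of 8.64% and 13.7%. The meiotic HORMA-domain gene Hormad1 fell by 1.66, from 9.83 and 9.76 CPM to 2.06 and 3.86 CPM, the cohesin gene Smc1b by 0.75 and the synaptonemal gene Sycp2 by 0.58, while Syce2 rose by 0.52. The germ cell transcription factor gene Sohlh1 rose by 2.41 and Tex15, a factor in piRNA-guided silencing, by 0.89. Of PRC1.6 the DNA-binding subunit Mga fell by 0.87, a single gene from which no result is drawn for the list. The 2-cell markers summed to 51.4 to 69.4 CPM with H3.3K4M and 282 to 390 CPM with H3.3WT, all 4 tested being lower, and oocyte markers to 29459 to 31757 CPM and 31638 to 32768 CPM. By library totals 27.9% of all calls were higher instead of 38.6%.

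The age of the mother changed none of the genes past the threshold. Dazl was at 560.4 and 636 CPM in 12-month MII oocytes, below 1169.6 and 840.2 CPM at 8 weeks (log2 fold change -0.85, SE 0.26, adjusted p = 0.21). Sycp3, at 278 and 243 CPM against 198 and 221 CPM, and Asz1, at 245 and 333 CPM against 169 and 183 CPM, had no overlap either. Their differences were smaller, at 0.19 and 0.59 (adjusted p = 0.805 and 0.407). Of all genes tested 28.4% lay higher at 12 months without overlap and 19.4% lower. The backgrounds were 0.272% higher and 0.530% lower; by edgeR 1 of 7 genes tested and 2305 genes in all had an unadjusted p under 0.05, and DESeq2 called none of the 7 and 1018 genes. Without replicate 2 of the 8-week oocytes Dazl and Stk31 were at -0.98 and -1.11, in a fit that leaves 1 library in that group. Of 66 other germline genes tested 2 rose and none fell: Mei4, needed for meiotic DNA breaks, by 4.14 (312 and 342 CPM against 19.1 and 15.4 CPM, adjusted p = 0.00773) and the helicase gene Ddx4 by 3.54 (449 and 409 CPM against 48.2 and 21.7 CPM, adjusted p = 0.0221).

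In 2-cell embryos of 12-month mothers Dazl was at 199 and 214 CPM, against 668 and 606 CPM in DMSO embryos of young mothers, and its log2 fold change of -1.29 (SE 0.30) had an adjusted p of 0.0704. With a block for the replicate number it passed (adjusted p = 0.0442), as it did under DESeq2, without the filter and by library totals (-1.63). Mael, at 15.3 and 26.8 CPM against 58.8 and 67.5 CPM, was at -1.28 (SE 0.48, adjusted p = 0.261) and passed without the filter (adjusted p = 0.0346). Age and vehicle cannot be told apart here, since the older group was untreated. Ddx4 and Mei4 were higher in these embryos too, by 3.70 and 2.58, the 2 of 81 other germline genes called. The backgrounds were 0.469% higher and 0.746% lower; none of the 8 was called by edgeR, 2 of the 8 and 3165 genes had an unadjusted p under 0.05, and DESeq2 called 1 of the 8 and 1111 genes. By library totals the median of all genes moved by -0.33 and 16.2% of calls were higher instead of 38.6%.

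From 12-month MII oocytes to 12-month 2-cell embryos the steps of the oocyte store were measured as well. Slc25a31, Asz1, Sycp3 and Dazl fell, with log2 fold changes of -3.45, -2.82, -2.38 and -1.91 (adjusted p values of 0.000719, 0.00247, 0.00129 and 0.000782), against a background of 6.76% lower. Tex101 rose from 1 count to 122, a ratio of 122 of the CPM (95% counting interval 21.5 to 4858, adjusted p = 0.00488), against 5.80% higher. Mael had a log2 fold change of 1.0 (SE 0.46, adjusted p = 0.189) and was not called. The difference between the step of older and younger mothers was not past the threshold for any of the 8 genes, against a background of 0.0174%; by edgeR none of the 8 and 1712 genes had an unadjusted p under 0.05, and DESeq2 called none of the 8 and 255 genes. By library totals the median of all genes moved by 0.37 in the 12-month step, where 66.4% of calls were higher instead of 46.2% (56.6% over genes only), and by -0.42 in that difference, where 0% of the calls were higher instead of 25%.

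Patterns over the 16 groups were compared among 13611 genes by the Pearson correlation of group means of log2(CPM + 1), as a description, since groups share stages and library kits. Genes below 5 CPM in every group and those with predicted, accession-like or mitochondrial symbols were left out, so closer matches may lie among them. Asz1 was most like Itpr2 (0.99) and D6Ertd527e (0.98), Tex101 like Slc22a20 (0.99) and Muc13 (0.98), and Tdrd1 like C8b (0.98) and Cldn25-ps (0.97). Dazl was most like Usp2 (0.97) and Tnfaip8 (0.96), Sycp3 like Dll3 (0.96) and Zfp560 (0.91), and Slc25a31 like Tpmt (0.94) and Esrp1 (0.91). Mael had the weakest second match, with Ahsa2 at 0.93 and Scamp1 at 0.85, and Stk31 was most like the synaptonemal gene Tex12 (0.91) and Slc18a2 (0.91). Among the 8 themselves Dazl correlated with Asz1 at 0.91 and with Tdrd1 at 0.90, Tdrd1 with Asz1 at 0.82 and Sycp3 with Slc25a31 at 0.77, and Tex101 with Asz1 at -0.54.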

How the data were processed

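The deposited files are raw read counts per gene and repeat subfamily, not normalized, 1 table per library. Smart-Seq2 was used for oocytes and embryos and a TruSeq kit on poly(A) RNA for stem cells, per the labels' protocols, so no test compares stem cells with embryos. Tools named in the submitters' processing notes are cutadapt 1.16 and STAR, with build mm10; the counter, its annotation and its use of strand were not given in the sources used here. CPM is the count per 1000000 of the library total over 55335 gene and 1153 repeat rows, and RPKM divides it by GENCODE M21 exon length. Groups came from the labels. Each stage, or set of stages compared, was fitted with edgeR 4.0.16 (R 4.3.3): filterByExpr (minimum count 10, total 15), TMM over genes and repeats, robust quasi-likelihood F-test, and Benjamini-Hochberg adjustment over all genes with a threshold of 0.05. "Called" means past it. SE is the absolute log2 fold change divided by the square root of that test's F statistic, and not a standard error given by the model. The script was tested on simulated data. The 8 genes, the lists, the rule for named genes (up to 4 called genes per list and comparison with the largest change, at least 5 CPM in the higher group and no overlap) and the alternatives were chosen with earlier results of these data known; scaling by library totals and crossed replicate pairs were added after seeing these fits. Intervals and bounds from 3 counts cover counting error only. Replicate numbers of the young 2-cell groups paired libraries (correlation of deviations 0.196 to 0.463 over 6 pairs); this comes from the data.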

Additional observations from a re-analysis of the deposited data

Results flagged for a closer look

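Drug effects that differed between 2-cell and 4-cell embryos, by a test of the difference itself in edgeR, stand out. For cycloheximide the effect at 4 cells minus that at 2 cells was 6.72 for Mael, 4.68 for Sycp3, 4.42 for Tdrd1, 2.52 for Dazl and -2.67 for Asz1 (log2), and for Tex101 the adjusted p was 0.000432. For MG132 it was 2.59 for Mael, 2.11 for Sycp3 and -2.18 for Slc25a31, and for Tex101 the adjusted p was 0.00625. For 4 genes both cycloheximide libraries lay above DMSO in stem cells and below it at 2 cells: Sycp3 (1.69 in stem cells, -0.76 at 2 cells), Mael (1.55, -3.26), Tdrd1 (2.35, -1.15) and Tex101 (1.54, and -8.47 as the log2 ratio of CPM). Sycp3 at 2 cells (adjusted p = 0.117) and Tex101 in stem cells (adjusted p = 0.0747) were not called. Of 15362 genes tested in both, 26.3% lay apart from DMSO in opposite directions. With MG132 Tex101 was at 1.23 in stem cells, not called, and at -6.47 at 2 cells with its 0 set to 3 counts over the group. For MG132 15.9% of all genes lay apart in opposite directions. These differences between stem cells and embryos were not tested, and the library kits differ.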

How the results depend on the processing

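Of 905 values under alternative settings of those differences of the 8 genes that were called in at least 1 setting, 801 kept their direction and their side of the threshold, 60 lost their call, 42 gained one and 2 changed sign: Stk31 with MG132 in stem cells ranged from -0.012 to 0.69 without single libraries, and Tdrd1 in the MG132 difference between stages from -0.17 to 3.03. None of the 60 calls of the report changed sign; of the 65 differences called in no setting, 30 did under an alternative. With 2 libraries a group, leaving 1 out assumes that the lone library varies like the other groups. Against H3.3WT, 3 of the 8 genes were called with H3.3K4M, 1 with DESeq2 size factors, the DESeq2 test, library totals or a replicate block, 5 with a crossed replicate block (added after seeing the data), and 1 to 4 without single libraries; for all genes 3444 became 5727 with the crossed block and 2171 to 3784. For 12-month MII oocytes 121 genes became 1018 (DESeq2), 788 (no filter), 188 (block) and 0 to 1105, with 0 to 2 of the 8. For 12-month 2-cell embryos 0 of the 8 became 1 (DESeq2, block, library totals) or 2 (no filter), and 272 genes became 1111, 962, 438 (block) and 86 to 183. For aphidicolin at 2 cells 0 of the 8 became 1 (DESeq2, no filter) and 45 genes became 596, 615, 117 (block), 15 (library totals) and 5 to 148; at 4 cells 0 genes became 270, 347 and 0 to 1; in its difference 0 of the 8 became 1 by both and 0 genes became 643, 772 and 0 to 158. DESeq2 called 3766 instead of 2188 genes for MG132 at 2 cells, 6791 instead of 4289 for cycloheximide at 4 cells, 4054 instead of 1663 for MG132 at 4 cells (3463 without filter), 4638 instead of 2884 for the 12-month step, 4955 instead of 2774 for the MG132 difference and 255 instead of 4 for the age difference (309 without filter, 1 with the block). For MG132 in stem cells 2 of the 8 became 4 and 606 genes 1336 without filter, and 203 with the block. Without single libraries these counts were 967 to 1805, 2335 to 2602, 581 to 1050, 1312 to 1551, 1413 to 2322 (1 to 5 of the 8), 0 to 24, and 8 to 9037 (0 to 6 of the 8). The same ranges were 1071 to 1254 of 5042 genes (3 to 5 of the 8) for cycloheximide in stem cells, 2811 to 3451 of 4640 from MII to 2 cells and 3381 to 4270 of 5301 for the cycloheximide difference. The replicate block changed no other call of the 8 genes in 2-cell embryos; in the 4-cell, stem cell, P14 and MII groups libraries share only a number (correlations of deviations -0.033 to 0.145, 0.041 to 0.176, -0.503 and -0.180). Library totals in place of TMM also moved the median of all genes by -0.41 from 2 to 4 cells, 0.21 from P14 to MII, 0.13 for MG132 at 2 cells, 0.13 for aphidicolin and 0.16 for MG132 at 4 cells, 0.11 for MII age and 0.15 for the aphidicolin difference. Fitted fold changes therefore differ from ratios of CPM.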

Other observations

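Genes that store and translate oocyte mRNAs, a group to which Dazl is related by function, were also measured. In 4-cell embryos cycloheximide raised 7 of 26 and lowered 5, against backgrounds of 8.77% and 10.3%. MG132 raised 7 and lowered none, against 3.06% and 4.33%. The medians were 1.15 and 1.17 against 0.44 and 0.00 over all genes. The RNA-binding protein gene Elavl2 rose by 4.09 with cycloheximide, from 9.87 and 5.78 CPM to 226 and 143 CPM, and by 3.55 with MG132. Btg4, an adaptor for maternal mRNA decay, rose by 2.90 and 2.55, and the polyadenylation regulator gene Cpeb1 by 2.88 and 2.42. At 2 cells the oocyte genes Zar1 and Zar1l rose by 3.11 and 2.95 with cycloheximide and by 3.20 and 3.40 with MG132. In stem cells 4 of 22 rose and 3 fell with cycloheximide, near the backgrounds of 13.6% and 13.4%, with Ybx2 at 1.45 and Elavl2 at -0.66.

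In some embryo comparisons the ADP/ATP translocase genes Slc25a5 and Slc25a4 did not follow Slc25a31. They were named for the size of their change, and no difference between these genes was tested. Slc25a31 was itself not called with MG132 at 4 cells. In 4-cell embryos with cycloheximide Slc25a5, the widely expressed form, fell by 1.91 (82.6 and 40.7 CPM against 176 and 155 CPM), and with MG132 Slc25a5 and Slc25a4 fell, with log2 fold changes of -3.39 and -3.05. At 2 cells with cycloheximide Slc25a5 fell by 1.21 where Slc25a31 rose by 1.69.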
